A study of Mus musculus with 21 samples.

Results

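Gm9195, Dapl1, 6330403K07Rik, Wdr72, Crispld2 and E230016K23Rik are 6 of the 55536 genes counted in pancreatic islets of CBA mice, and 6 of the 27229 genes with enough reads to be tested. They were picked because their transcripts were much higher in islets of mice on high-fat diet (HFD) than on regular diet (RD), and they were grouped as little-studied genes. Their HFD vs RD values are therefore a description of how they were chosen and carry no test. All 6 passed the filter of at least 10 read pairs over all samples.

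RNA was sequenced from 21 islet samples of CBA males, 7 from mice on RD, 7 on HFD and 7 on HFD-O304, which is the HFD mixed with 0.8 mg of O304 per g of diet. The compound O304 is a pan-activator of AMPK, the kinase that responds to the energy state of the cell. Diets began at 10 weeks of age, and the study's methods give 9 weeks of feeding whereas its results text gives 10 weeks. Each sample held RNA of 150 islets from a pool of 5 mice, and the sources do not say whether any mouse gave islets to more than 1 sample, so the p-values measure the spread between these samples. All mice shared the strain and sex, and no HFD-free group received O304, so the effect of O304 on RD islets was not measured. Replicates 1 to 4 and 5 to 7 of each group carry different ranges of library identifiers and are called library sets below. Read pairs on genes ranged from 13809266 in HFD-O304 replicate 2 to 48922569 per sample. HFD-O304 replicate 1 carries the diet tag HFD in the labels but the title of an HFD-O304 sample, and it was grouped by its title.

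The 6 transcripts have little in common by annotation. Dapl1 encodes a small protein related to the death-associated protein Dap and is known from differentiating epithelia. Wdr72 encodes a WD-repeat protein needed for the hardening of tooth enamel, and its close relative Wdr7 is a part of rabconnectin-3, a complex that works with the vacuolar proton pump acidifying vesicles, insulin granules included. Crispld2 encodes a secreted protein of the CAP superfamily, studied mainly in the developing lung. Gm9195 and 6330403K07Rik are annotated as protein-coding genes under systematic names, and E230016K23Rik is annotated as a processed transcript, a class of long non-coding RNA. Islets hold mostly insulin-producing beta cells, with alpha, delta and PP cells and some vessels and connective tissue, and in whole islets fewer cells of a type and less RNA per cell cannot be told apart.

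The genes lie on 5 chromosomes of the mouse genome (GRCm38, GENCODE M21). Gm9195 (ENSMUSG00000109446) lies at chr14:72426013-72491838 on the minus strand, with 8870 exonic bases in 55 exon blocks. Dapl1 (ENSMUSG00000026989) lies at chr2:59484653-59505020 on the plus strand, with 679 exonic bases. 6330403K07Rik (ENSMUSG00000018451) is a compact gene at chr11:71031941-71033513 on the minus strand, with 1494 exonic bases. Wdr72 (ENSMUSG00000044976) spans chr9:74110356-74283308 on the plus strand, with 7486 exonic bases. Crispld2 (ENSMUSG00000031825) lies at chr8:119992438-120052793 on the plus strand, with 4777 exonic bases, and overlaps the annotated genes Gm20388 on the same strand and Gm15684 on the other. E230016K23Rik (ENSMUSG00000051832) lies at chr11:83582056-83623693 on the plus strand, with 2816 exonic bases, and the chemokine gene Ccl6 lies within its span on the minus strand. Counts were taken by strand. The opposite strand held 0.0586% (Dapl1) to 1.27% (Crispld2) of the read pairs of both strands, summed over the 21 samples. Read pairs that match more than 1 gene are not counted, so the level of Crispld2 may lack pairs shared with Gm20388.

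Stretches just upstream of 3 of the genes are shown because each holds the only match found to the motifs searched, with the match in capitals. They were read 5′ to 3′ on the strand of the gene from RefSeq promoters (GRCm38.p6), and 5 of the 6 symbols were matched. Dapl1 has a TATA box close to its start (chr2:59484553-59484652, plus strand), Gm9195 has the core of a nuclear receptor site (chr14:72461655-72461754, minus strand), and Crispld2 has an E-box near the far end of a GC-rich stretch (chr8:119992188-119992437, plus strand).
Dapl1: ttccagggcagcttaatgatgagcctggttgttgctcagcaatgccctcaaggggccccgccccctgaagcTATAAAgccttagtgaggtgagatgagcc
Gm9195: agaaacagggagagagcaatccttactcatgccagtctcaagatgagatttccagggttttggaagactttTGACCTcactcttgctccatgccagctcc
Crispld2: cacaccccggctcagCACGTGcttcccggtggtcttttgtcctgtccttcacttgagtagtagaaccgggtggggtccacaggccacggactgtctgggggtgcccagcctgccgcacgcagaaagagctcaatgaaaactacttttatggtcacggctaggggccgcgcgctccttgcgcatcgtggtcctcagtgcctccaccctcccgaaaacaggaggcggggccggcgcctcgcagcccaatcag
TATAAA began 29 bases upstream of the Dapl1 start and was found in 13.6% of 32851 mouse promoters of 300 bases (250 upstream and 50 downstream of the start, both strands searched). TGACCT began 29 bases upstream of the RefSeq start of Gm9195 and was found in 16.3% of them. That start lies 30184 bases inside the GENCODE gene, so the stretch is upstream of the RefSeq transcript only. CACGTG began 235 bases upstream of the Crispld2 start and was found in 7.15% of promoters. The cAMP response element TGACGTCA (1.79% of promoters) was found in none of the 5 promoters, and neither the 6330403K07Rik nor the E230016K23Rik promoter held any of the 4 motifs. No match overlapped another. The 5 promoters thus share none of these letters, and a match is a description, not a bound site.

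Levels are given as normalized counts, which are read pairs divided by the size factor of the sample. Gm9195, a predicted gene with no named product, had the widest range of the 6. In RD islets its lowest, median and highest normalized counts were 11.7, 17.98 and 70.1, in HFD islets 110.4, 413 and 1363, and in HFD-O304 islets 0, 2.61 and 10.8. The 3 groups did not overlap, with HFD highest and HFD-O304 below RD. Group means ± SD (n = 7) were 29.0 ± 21.5, 517 ± 402 and 4.35 ± 4.51. No read pair was counted in HFD-O304 replicate 5, where 3 counts, the limit that a count of 0 allows for counting error, would be 2.67 normalized counts.

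Dapl1 was the most abundant of the 6. Its lowest, median and highest normalized counts were 1806, 2344 and 3025 in RD, 3058, 6603 and 18129.7 in HFD, and 1577, 1978 and 2341 in HFD-O304 islets. HFD replicate 7 stood barely above the highest RD sample, whereas HFD replicate 1 held several times the RD level. Means ± SD were 2414 ± 549, 8351 ± 4875 and 1942 ± 305.

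6330403K07Rik had the most even rise, with a coefficient of variation of 25.3% among HFD samples. Its lowest, median and highest normalized counts were 64.1, 99.5 and 135 in RD, 207, 332 and 484 in HFD, and 128, 146 and 173 in HFD-O304 islets. It is the only member of the 6 whose HFD-O304 mean (149 ± 18.2) lay above its RD mean (96.7 ± 22.9). The HFD mean was 329 ± 83.2.

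Wdr72 was low in RD islets and had the widest relative spread in HFD islets, with a coefficient of variation of 87.0%. Its lowest, median and highest normalized counts were 12.1, 37.0 and 49.8 in RD, 40.9, 139 and 473 in HFD, and 12.5, 18.8 and 20.9 in HFD-O304 islets. HFD replicate 7 lay inside the RD range, and the other 6 HFD samples lay above it. Means ± SD were 34.8 ± 13.7, 166 ± 144 and 18.2 ± 2.92, so the HFD-O304 samples were also the most alike, with a coefficient of variation of 16.03%.

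Crispld2 varied in every group. Its lowest, median and highest normalized counts were 14.8, 41.1 and 104.6 in RD, 102.6 (replicate 7), 192 and 361 in HFD, and 25.1, 38.3 and 75.0 in HFD-O304 islets. HFD replicate 7 again fell inside the RD range. Means ± SD were 56.5 ± 34.4, 218 ± 99.3 and 40.8 ± 16.3.

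E230016K23Rik, the non-coding transcript, was the most even in RD islets, with a coefficient of variation of 11.5%. Its lowest, median and highest normalized counts were 53.4, 56.2 and 70.3 in RD, 95.6, 153 and 223 in HFD, and 16.6, 34.3 and 46.2 in HFD-O304 islets. As with Gm9195, the 3 groups were apart, HFD above RD and RD above HFD-O304. Means ± SD were 59.6 ± 6.85, 166 ± 45.3 and 33.7 ± 9.70.

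**Figure D1:**
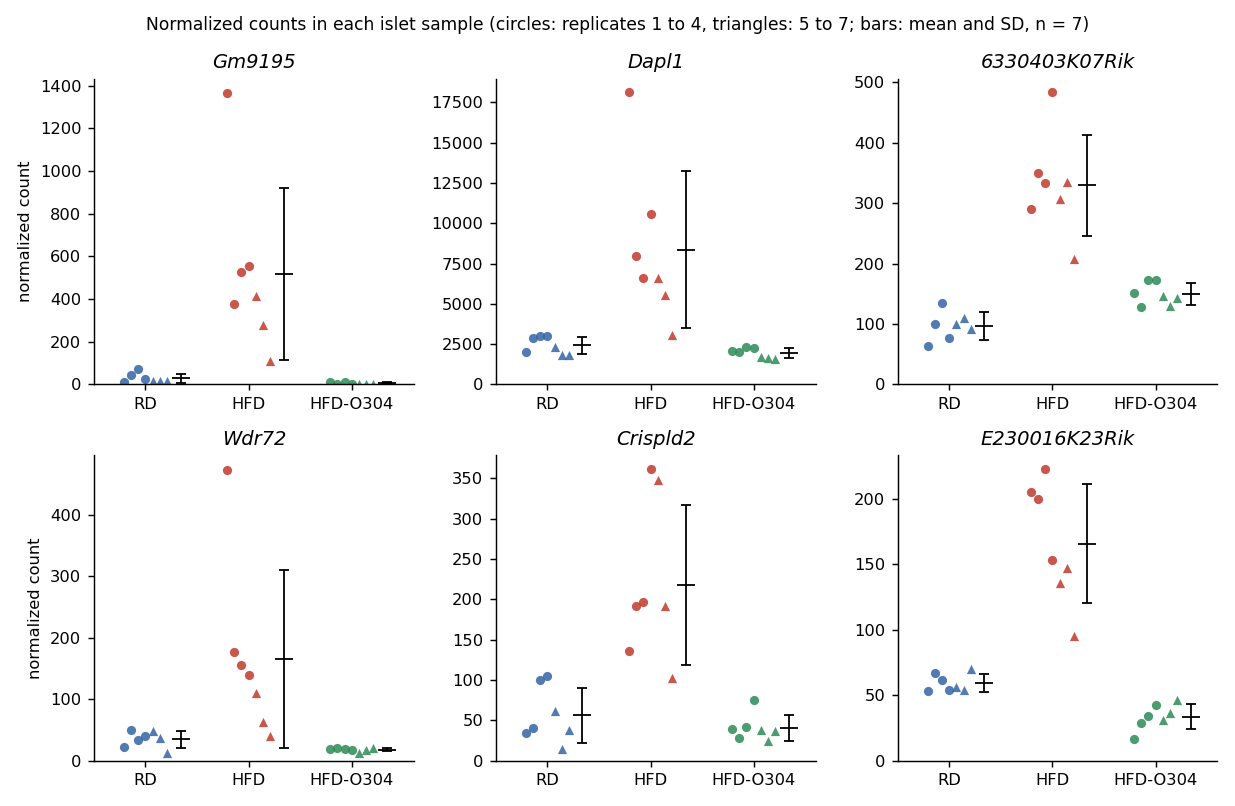
Normalized counts (vertical axis, from 0) of the 6 transcripts by islet sample, 7 per group (RD, HFD and HFD-O304), with circles for replicates 1 to 4, triangles for replicates 5 to 7, and bars for the mean and SD. The HFD mean is highest in every panel. HFD replicate 7 is the lowest HFD sample in 6 of 6 panels, and lies inside the RD range for Wdr72 and Crispld2. Single HFD samples reach 1363 for Gm9195, 18129.7 for Dapl1 and 473 for Wdr72.

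Per kilobase of exon, which allows levels to be compared between genes, Dapl1 stood far above the others in HFD islets, at 12299 normalized counts per kb (SD 7180), higher than 99.8% of the genes tested. 6330403K07Rik followed at 220.4 (SD 55.7), higher than 79.8% of genes. E230016K23Rik (58.9, SD 16.1), Gm9195 (58.3, SD 45.3) and Crispld2 (45.7, SD 20.8) came next, with neighbours among these 3 closer than their SD, and Wdr72 was lowest (22.1, SD 19.2). In HFD-O304 islets Gm9195 fell to 0.490 per kb, a level higher than that of 7.68% of genes, against 60.2% in HFD islets. Dapl1 kept its place, since even in HFD-O304 islets its level per kb (2859) was higher than that of 99.1% of genes.

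In the HFD vs RD comparison, which chose the genes, HFD means were 17.8 (Gm9195), 3.46 (Dapl1), 3.41 (6330403K07Rik), 4.76 (Wdr72), 3.87 (Crispld2) and 2.78 (E230016K23Rik) times the RD means. Of all genes tested, 2.00% were called higher in HFD and 0.665% had all 7 HFD samples above all 7 RD samples, as did Gm9195, Dapl1, 6330403K07Rik and E230016K23Rik. Ranked by log2 fold change, Gm9195 (4.11) was number 12 of 27229 and E230016K23Rik (1.47), the lowest of the 6, was number 442.

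All 6 transcripts were lower in HFD-O304 than in HFD islets, with no overlap between the 7 and 7 samples of any of them. Since the same HFD samples chose the genes as high, a fall from them is partly fixed by the choice, and only the HFD-O304 samples are new to it. By edgeR's quasi-likelihood test with Benjamini-Hochberg adjustment over all genes, 6 of 6 were called lower at an adjusted p under 0.01, against 6.79% of all genes, and 3.61% of all genes had all 7 HFD-O304 samples below all 7 HFD samples. The mean of Gm9195 was 118.98 times as high in HFD as in HFD-O304 islets, with a log2 fold change of -6.69 (SE 0.56, adjusted p = 3.96e-09), the 5th lowest of all genes. Wdr72 followed with -3.16 (SE 0.40, adjusted p = 1.58e-06), Crispld2 with -2.40 (SE 0.33, adjusted p = 5.12e-06) and E230016K23Rik with -2.28 (SE 0.19, adjusted p = 3.14e-09). Dapl1 changed by -2.09 (SE 0.24, adjusted p = 4.11e-07) and 6330403K07Rik, the smallest change, by -1.13 (SE 0.15, adjusted p = 2.68e-06). Each was called in both library sets. Wdr72 had -3.63 in replicates 1 to 4 and -2.05 in replicates 5 to 7, E230016K23Rik -2.68 and -1.72, Dapl1 -2.32 and -1.62, 6330403K07Rik -1.21 and -1.01, Gm9195 -6.57 and -7.00, and Crispld2 -2.22 and -2.68.

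In contrast, 0 of the 6 were called between HFD-O304 and RD islets at an adjusted p under 0.01 (edgeR), where 1.31% of all genes were called. This comparison uses the RD samples that also chose the genes. At an unadjusted p under 0.05, 4 of the 6 passed in edgeR, and DESeq2 called 3 at its adjusted p. Gm9195 was lower in HFD-O304 than in RD islets in all 7 samples, with a log2 fold change of -2.58 (95% confidence interval -4.00 to -1.15, adjusted p = 0.0318 by edgeR and 0.00141 by DESeq2). E230016K23Rik was likewise below all RD samples in 7 of 7 samples, at -0.81 (-1.22 to -0.40, adjusted p = 0.0173 and 0.00163). Of all genes, 0.870% had all 7 HFD-O304 samples below all 7 RD samples. 6330403K07Rik lay on the other side, at 0.63 (0.31 to 0.95, adjusted p = 0.0202 and 0.00278), with 5 of 7 HFD-O304 samples above all RD samples. The remaining 3 differed by -0.31 (-0.80 to 0.17, adjusted p = 0.590) for Dapl1, -0.45 (-1.17 to 0.27, adjusted p = 0.605) for Crispld2 and -0.95 (-1.84 to -0.07, adjusted p = 0.282) for Wdr72, all by edgeR. The intervals are not adjusted for the number of genes. Within replicates 1 to 4 and 5 to 7 the values were -2.43 and -2.98 for Gm9195, -0.96 and -0.66 for E230016K23Rik and 0.73 and 0.48 for 6330403K07Rik, and none was called within a set.

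**Figure D2:**
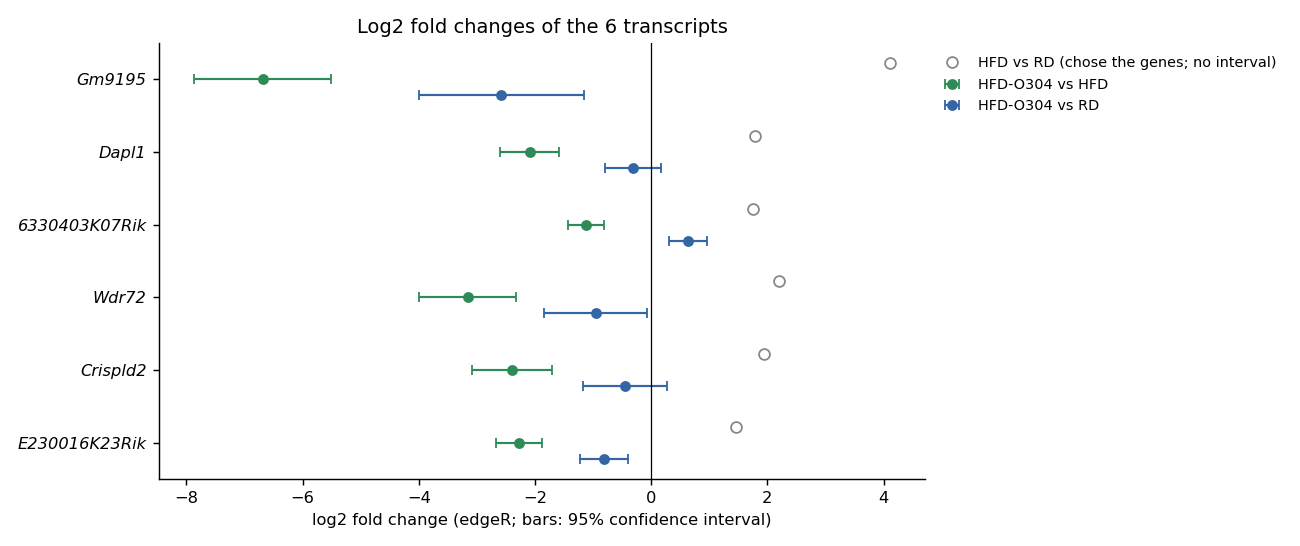
Log2 fold changes of the 6 transcripts (horizontal axis) in HFD-O304 vs HFD (green) and HFD-O304 vs RD islets (blue), with 95% confidence intervals, and in HFD vs RD islets (open grey circles, with no interval because this comparison chose the genes). Every green interval lies below 0, from -6.69 for Gm9195 to -1.13 for 6330403K07Rik, while the blue values run from -2.58 to 0.63.

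Whether the size of the changes differed between the library sets was tested by an interaction term in edgeR. It called 0 genes at an adjusted p under 0.01 for HFD vs RD, HFD-O304 vs HFD and HFD-O304 vs RD, with 1862, 1314 and 1516 of 27229 genes at an unadjusted p under 0.05, and DESeq2 called 8, 12 and 0 genes. No member was among those 8, but for HFD-O304 vs HFD DESeq2 gave an adjusted p for Dapl1 alone of the 6, so the other 5 could not be called by it. For the fall from HFD to HFD-O304 the edgeR difference between sets was -0.94 (SE 0.33, unadjusted p = 0.00896, adjusted p = 0.952) for E230016K23Rik, with an unadjusted p of 0.00469 by DESeq2. For Wdr72 it was -1.55 (SE 0.64, unadjusted p = 0.0234, adjusted p = 0.9999), with an unadjusted p of 0.0287 by DESeq2.

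The 7 HFD samples were then compared with each other. Since the levels in these samples also chose the genes, and no other genes were taken as background, the correlations are given as a description with no test. HFD replicate 7 was the lowest HFD sample for 6 of the 6 transcripts, and replicate 1 was the highest for Gm9195, Dapl1 and Wdr72, replicate 4 for 6330403K07Rik and Crispld2, and replicate 3 for E230016K23Rik. Over these samples, Pearson's r of log2(normalized count + 1) was positive in 15 of the 15 pairs, with a median of 0.53. The 3 highest were those among Gm9195, Dapl1 and Wdr72. Gm9195 and Dapl1 had r = 0.962 (Spearman's rho 0.893), Gm9195 and Wdr72 r = 0.947 (rho 0.750), and Dapl1 and Wdr72 r = 0.938 (rho 0.893). Without the 2 samples farthest from the median, r was 0.69, 0.72 and 0.62.

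The shared order of the 6 transcripts rested on HFD replicate 7. Without it, the median r of the 15 pairs was -0.01 and 7 of 15 were positive, whereas the 3 pairs among Gm9195, Dapl1 and Wdr72 kept r between 0.866 and 0.987 whichever 1 HFD sample was left out. Crispld2 and 6330403K07Rik (r = 0.785 over 7 samples) reached r = 0.991 over HFD replicates 1 to 4, while over the same 4 samples Crispld2 had r = -0.83 with E230016K23Rik and -0.79 with Wdr72. When each library set was centred on its own mean, the median r was 0.30, with the 3 pairs at r = 0.926, 0.903 and 0.872. The median r was 0.34 in RD and 0.15 in HFD-O304 islets.

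**Figure D3:**
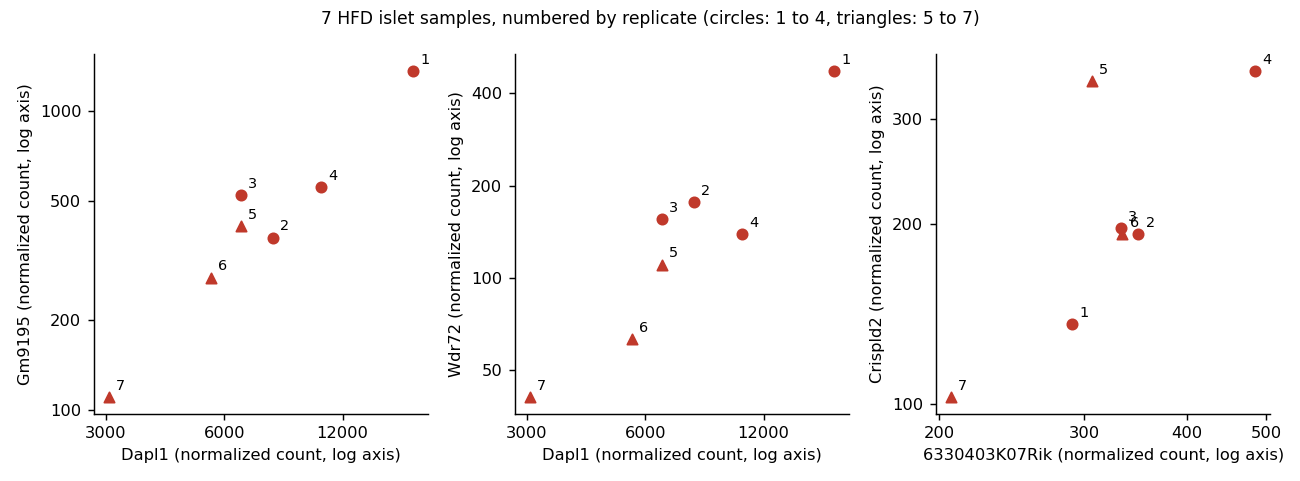
Normalized counts of pairs of transcripts in the 7 HFD islet samples (both axes logarithmic), numbered by replicate, with circles for replicates 1 to 4 and triangles for 5 to 7. Gm9195, Wdr72 and Dapl1 are all lowest in replicate 7 and highest in replicate 1 (r of 0.962 and 0.938 with Dapl1), whereas in the panel of Crispld2 against 6330403K07Rik (r = 0.785) replicate 1 lies near the low end and replicates 4 and 5 are highest for Crispld2.

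Markers of dividing cells were set beside the 6 transcripts. Of 6 such markers (Mki67, Top2a, Cdk1, Ccnb1, Aurkb and Birc5), 6 were called higher in HFD than in RD islets (2.00% of all genes were) and 6 lower in HFD-O304 than in HFD islets (6.79% of all genes were). Their summed normalized counts ranged from 473 to 799 in RD, from 559 to 3296 in HFD and from 234 to 581 in HFD-O304 islets. The lowest HFD sum was that of replicate 7, inside the RD range, and the highest that of replicate 1. Among HFD samples this sum had r = 0.964 with E230016K23Rik (rho 0.964) and 0.915 with Wdr72 (rho 0.929). With Gm9195 it had r = 0.899 (rho 0.750), and with Dapl1 0.861 (rho 0.821). Without the 2 farthest samples these r were 0.933, 0.841, 0.513 and 0.400, in that order. The sum had r = 0.566 with 6330403K07Rik (rho 0.214) and 0.234 with Crispld2 (rho 0.0714). Over HFD replicates 1 to 4 alone these 2 values were -0.97 and -0.99. Over the same replicates r was 0.758 with E230016K23Rik, 0.875 with Wdr72, 0.656 with Gm9195 and 0.476 with Dapl1. Members were correlated only with the proliferation, mesenchymal, acinar, T cell, macrophage and endothelial lists. None of these 36 relations reached an adjusted exact permutation p under 0.05, the lowest being 0.0643. The alpha, beta, delta and duct lists were not correlated with the members. The part of dividing cells in the values of the 6 transcripts was not tested.

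Markers of other cells were set beside the members by their calls, with correlations given for the mesenchymal and acinar lists only. All 4 alpha cell markers listed were called lower in HFD islets than in RD islets (1.54% of all genes were) and higher in HFD-O304 islets than in HFD islets (5.08% of all genes were), the reverse of the 6 transcripts, and Gcg, the glucagon gene, was present in every sample. Of 8 beta cell markers, Iapp was called higher and Slc2a2 lower in HFD vs RD islets, and Ins1, Ins2 and Iapp were called lower and Slc2a2 and Ucn3 higher in HFD-O304 than in HFD islets. Of 7 mesenchymal markers 0 were called in HFD vs RD islets by edgeR (5 at an unadjusted p under 0.05, and 0 by DESeq2), and Col1a2, Col3a1 and Pdgfrb were called lower in HFD-O304 than in HFD islets, with summed counts of 1519 to 2925 in RD, 1712 to 4860 in HFD and 1151 to 3201 in HFD-O304 islets. Among HFD samples r with this sum was 0.740 for E230016K23Rik, 0.720 for 6330403K07Rik, 0.523 for Gm9195, 0.496 for Crispld2, 0.399 for Dapl1 and 0.361 for Wdr72. Without the 2 farthest samples r ran from -0.65 (Wdr72) to 0.46 (6330403K07Rik), with 0.02 for Crispld2. The hormone gene Sst of delta cells was called lower in HFD vs RD islets, and both delta markers were called higher in HFD-O304 than in HFD islets. No duct, endothelial or macrophage marker was called by edgeR in HFD vs RD islets, with 2 of 5, 2 of 4 and 3 of 5 at an unadjusted p under 0.05 and 2, 1 and 1 called by DESeq2. In HFD-O304 vs HFD islets edgeR called 3 of the 5 duct markers higher (Krt19, Sox9 and Cftr), while Krt7 and Spp1 had log2 fold changes of -0.20 and -0.33. Among 5 macrophage markers it called Csf1r higher, while the other 4 had values below 0, among them Lyz2 at -0.68 (adjusted p = 0.0183, called lower by DESeq2). Of the 4 vessel markers it called Pecam1 and Cdh5 lower, and DESeq2 called Plvap lower too. Of 5 T cell markers the summed count was at most 19.7 in any sample. Exocrine RNA varied most, with the summed counts of 7 acinar markers between 157 and 268528, 0 of the 7 called in any comparison by edgeR or DESeq2 and 0 at an unadjusted p under 0.05, and r with the 6 transcripts between -0.17 and 0.26 among HFD samples. The part of these cells in the values of the 6 transcripts was not tested.

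Most relatives of Wdr72 and Dapl1 were not called. Wdr7, Dmxl1, Dmxl2 and Rogdi, the rabconnectin-3 group to which Wdr72 is related, were not called in any of the 3 comparisons by edgeR or DESeq2 (1, 0 and 2 of the 4 had an unadjusted edgeR p under 0.05 in HFD vs RD, HFD-O304 vs RD and HFD-O304 vs HFD), and their HFD-O304 vs HFD log2 fold changes ranged from 0.01 for Dmxl2 to 0.17 for Dmxl1 (adjusted p = 0.962 and 0.0890, edgeR). Of 23 subunits and accessory proteins of the vacuolar proton pump that were tested, Atp6v0e2 was called higher in HFD than in RD islets (0.28, SE 0.07, adjusted p = 0.00898, edgeR), where 3.54% of all genes were called in either direction. Between HFD-O304 and HFD islets 3 of 23 were called lower, Atp6v0e2 (-0.32), Atp6v1g2 (-0.63) and Atp6ap1 (-0.25), and 0 higher. Of all genes, 6.79% were called lower there and 11.9% in either direction. DESeq2 called 5 of the 23 there, adding Atp6v0a2 lower and Atp6v1g1 higher. The median log2 fold change of the 23 in HFD-O304 vs HFD islets was -0.04, beside 0.03 over all genes tested. Dap, the relative of Dapl1, had 7733 ± 579, 8641 ± 717 and 7660 ± 496 normalized counts in RD, HFD and HFD-O304 islets and was called in no comparison (HFD vs RD 0.15, adjusted p = 0.125, and HFD-O304 vs HFD -0.17, adjusted p = 0.0535, edgeR).

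In the CAP superfamily Pi15, which encodes a secreted peptidase inhibitor, took the same course as Crispld2. Beside Crispld2, which was chosen, 8 family members were tested. Of these 8, edgeR called Pi15 higher in HFD than in RD islets (2.00% of all genes were), and Pi15 and Glipr2 lower in HFD-O304 than in HFD islets (6.79% of all genes were). DESeq2 called Crisp2 lower there too, and Glipr1 had a value in the other direction, 1.04 (adjusted p = 0.0588, edgeR). Pi15 had 76.0 ± 13.9, 145 ± 17.5 and 53.7 ± 17.6 normalized counts in RD, HFD and HFD-O304 islets, and its log2 fold changes by edgeR were 0.92 (SE 0.16, adjusted p = 0.000723) for HFD vs RD and -1.41 (SE 0.17, adjusted p = 8.05e-07) for HFD-O304 vs HFD. Crispld1, the closest relative, had 65.6 ± 17.7, 58.9 ± 12.1 and 53.5 ± 11.4 and was called in neither (-0.16, adjusted p = 0.693, and -0.12, adjusted p = 0.719, edgeR). The median over all 9, Crispld2 included, was 0.82 in HFD vs RD islets and -1.10 in HFD-O304 vs HFD islets. Over all genes tested the medians were -0.004 and 0.03. Both family medians are the values of Glipr2. Since they include Crispld2, which was chosen for its high HFD level, they are a description with no test. Glipr1l3 (group means of 0.87 to 1.78) and Clec18a (0.33 to 1.15) also had few reads.

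Few of the genes on either side of the 6 were called. Of 36 neighbours, the 3 nearest tested genes on each side of each member, 0 were called in HFD vs RD islets (edgeR, background 3.54% of all genes in either direction) and 0 in HFD-O304 vs RD islets. At an unadjusted p under 0.05 these counts were 3 and 4, and DESeq2 called 1 (A130014A01Rik, lower in HFD) and 0. By edgeR 2 were called in HFD-O304 vs HFD islets, where 11.9% of all genes were called. Both were higher in HFD-O304 islets, Wdsub1 on the side of Dapl1 by 0.28 (SE 0.07, adjusted p = 0.00428) and A130014A01Rik on the side of Crispld2 by 0.51 (SE 0.11, adjusted p = 0.00130). Many neighbours had few reads, such as Gm16549 (group means of 0.12 to 1.16) and Nlrp1a (0.81 to 1.81), so changes in them could be missed. Some were also far away. Those before Gm9195 start 1536 to 1752 kb from it, and those of Wdr72 434 to 935 kb from it. Fndc3a, the nearest tested gene after Gm9195, had a mean of 17505 ± 1441 normalized counts in HFD islets against 16467 ± 1052 in HFD-O304 islets (log2 fold change -0.08, adjusted p = 0.407, edgeR). Ccl6, inside the span of E230016K23Rik on the other strand, had 8.78 ± 2.33 and 9.25 ± 3.35 (-0.01, adjusted p = 0.984, edgeR).

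**Figure D4:**
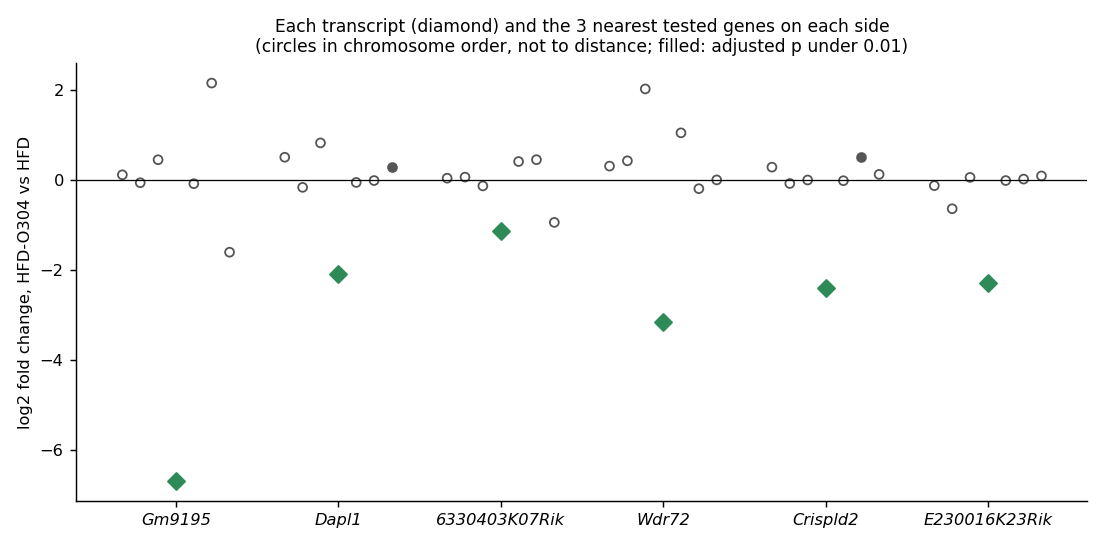
Log2 fold change in HFD-O304 vs HFD islets (vertical axis) of each of the 6 transcripts (green diamonds) and of the 3 nearest tested genes on each side (circles in chromosome order, filled where the adjusted p was under 0.01). The diamonds lie between -6.69 and -1.13, and the 2 filled circles lie above 0, at 0.28 and 0.51. Circles are not drawn to distance, and many stand for genes with few reads.

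To show which transcripts followed each member most closely, genes were ranked by Pearson's r with it over all 21 samples, among the 13216 tested genes whose mean normalized count reached 50. These values mix the differences between groups with those within groups and carry no test. For Gm9195 the closest were Rrm2, a subunit of ribonucleotide reductase that makes DNA building blocks (r = 0.973), Procr, the protein C receptor (0.961), and Frmd5 (0.960). For Dapl1 they were Cgref1 (0.9747), Maged2 (0.9746) and Copz2, a coat protein of Golgi vesicles (0.973). For Wdr72 they were the elongation factor Ell2 (0.962), Alg5 (0.961) and Erlec1 (0.959), of which the latter pair act in the endoplasmic reticulum, in the making of N-glycans and in the quality control of glycoproteins. Within groups, after the group means were removed, these 3 still had r of 0.871, 0.875 and 0.885 with Wdr72, and those of Dapl1 0.912, 0.914 and 0.919.

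For Crispld2 the closest were the phosphodiesterase Pde3a (r = 0.912), Crip1 (0.904) and Fez1 (0.903). For 6330403K07Rik they were Ntpcr (0.878), Bak1, a protein of the mitochondrial death pathway (0.871), and Steap1, a metalloreductase (0.862), and the within-group r of Ntpcr was 0.428. For E230016K23Rik the r values were close to those of Wdr72, and its closest genes were Rasl10b (0.963), Crmp1 (0.961) and Inhba, which encodes the activin A subunit (0.955). Inhba had 57.9 ± 10.6, 163 ± 54.2 and 29.2 ± 10.4 normalized counts in RD, HFD and HFD-O304 islets.

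Rasl10b, a small GTPase gene of the Ras family, lies on the same chromosome and strand as E230016K23Rik, at chr11:83409137-83421039, and its start is 173 kb away. It had 130.3 ± 11.4, 271 ± 59.1 and 73.3 ± 13.5 normalized counts in RD, HFD and HFD-O304 islets. Rasl10b was picked for its high r with E230016K23Rik over the same 21 samples. Its group differences are therefore largely set by that choice, and are given as a description with no test. By edgeR its log2 fold change was 1.05 for HFD vs RD, -1.86 for HFD-O304 vs HFD and -0.81 for HFD-O304 vs RD. The last has the same size as the -0.81 of E230016K23Rik. Within groups their r was 0.682. Between the starts of Rasl10b and E230016K23Rik lie 4 tested genes, Mmp28, Taf15, Ccl5 and Ccl9. Of these, 0 were called in any of the 3 comparisons by edgeR or DESeq2, or passed an unadjusted p under 0.05. Mean normalized counts were low for Ccl5 (3.08 to 4.84), Ccl9 (8.65 to 13.2) and Mmp28 (18.7 to 24.3), against 1345 to 1472 for Taf15. A change like that of Rasl10b could be missed in the low genes. The 4 genes in between were examined after the values of Rasl10b were seen.

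**Figure D5:**
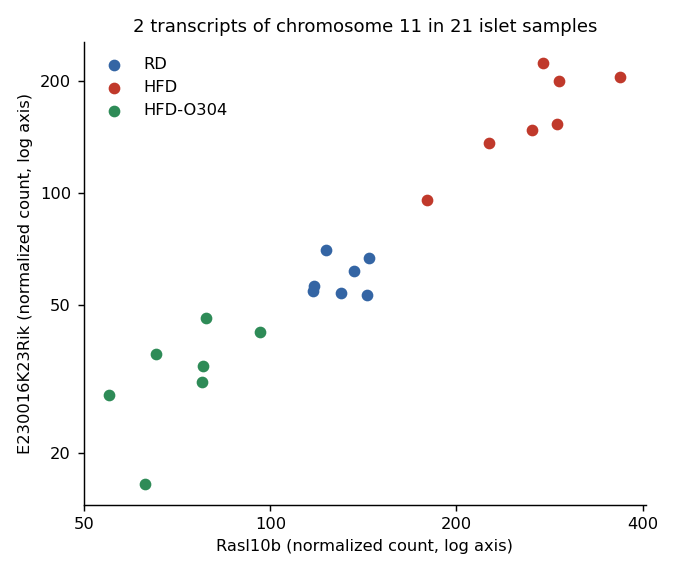
Normalized counts of E230016K23Rik (vertical axis) and Rasl10b (horizontal axis), both logarithmic, in 7 RD (blue), 7 HFD (red) and 7 HFD-O304 (green) islet samples. The 3 groups form separate clouds along a diagonal, with HFD samples highest for both genes and HFD-O304 samples lowest (r = 0.963 over 21 samples, 0.682 after the group means were removed). Rasl10b was picked for this high r, so the diagonal is largely set by that choice.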

How the data were processed

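RNA was sequenced from 21 islet samples (7 RD, 7 HFD and 7 HFD-O304). They were grouped by their titles, except HFD replicate 3, which was grouped by its diet tag HFD. Read pairs were mapped by the authors with STAR (GRCm38, Ensembl version 96), who deposited counts of read pairs per gene, unstranded and per strand, with no normalization; versions of STAR and FastQC were not given in the sources used here. Pairs matching several places or genes are left out of these counts. The strand column holding 28.8 to 36.3 times the pairs of the other was used. Its 4 summary lines (18.5% to 24.9% of pairs) were left out. All 55536 identifiers were matched to GENCODE M21.

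Genes with at least 10 pairs over 21 samples (27229) were fitted with edgeR 4.0.16 (TMM, quasi-likelihood, all 3 groups, no covariates) in R 4.3.3, and called at a Benjamini-Hochberg adjusted p under 0.01. Depth ran from 13809266 to 48922569 pairs on genes, and replicate pairs differed by 8.05 to 101 times the counting noise (chi-square per gene). Counts divided by DESeq2 1.42.0 size factors are the normalized counts. Correlations used a pseudocount of 1 and exact permutation of 5040 orders in scipy 1.17.1. Alternatives covered DESeq2, normalization, filter, strand, groups in the fit, replicate block, library set, threshold and samples left out; leaving out each HFD sample from the correlations and the correlations with marker lists were added after seeing the data. Scripts were tested on simulated data. The members and the lists were chosen with earlier results of these data known. Named beside the 6 members are the 3 genes closest to each by r, called neighbours and list genes, and named relatives. ChIP-seq was not analysed here. One list of markers is not reported here.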

Additional observations from a re-analysis of the deposited data

Results flagged for a closer look

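Dixon's test at the 95% level was run on unlogged normalized counts of 18 groups of 7 samples (6 transcripts in 3 groups). In 3 of the groups a sample was far from the rest. Chance gives about 1 in 20 where values are normally distributed, which was not checked. The test was not run on logarithms, where high values stand out less. HFD replicate 1 had 1363 normalized counts of Gm9195, with 556 the next highest, a gap of 0.645 of the range of the group. The same sample had 473 of Wdr72, with 177 the next, a gap of 0.685. It also held the highest Dapl1 level, the highest summed proliferation markers and the highest summed acinar markers (207903) of the HFD samples, and the part of these in its values was not tested. Without HFD replicate 1, the HFD-O304 vs HFD log2 fold change was -6.24 for Gm9195, -2.65 for Wdr72 and -1.79 for Dapl1, all still called by edgeR. HFD-O304 replicate 4 had 75.0 normalized counts of Crispld2, with 41.9 the next, a gap of 0.663, and without it the HFD-O304 vs HFD value of Crispld2 was -2.61. The sample also held the highest mesenchymal sum of its group (3201), whose part was not tested.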

How the results depend on the processing

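For the 6 transcripts, 32 alternatives each kept the direction of every comparison, and all 6 stayed called lower in HFD-O304 than in HFD islets under each of them. Values ranged from -7.12 to -6.24 for Gm9195, -2.32 to -1.62 for Dapl1, -1.22 to -1.01 for 6330403K07Rik, -3.63 to -2.05 for Wdr72, -2.68 to -2.22 for Crispld2 and -2.68 to -1.72 for E230016K23Rik. In HFD-O304 vs RD islets, Gm9195 passed the threshold under 6 alternatives (DESeq2, the 2 groups alone, the replicate block, the library set as a covariate, a threshold of 0.05 and without HFD replicate 1), 6330403K07Rik under 5 (DESeq2, the block, 0.05, without RD replicate 3 and without HFD replicate 7) and E230016K23Rik under 3 (DESeq2, 0.05 and without HFD replicate 7), while Dapl1, Wdr72 and Crispld2 passed under none. The adjusted p ranged from 0.00141 to 0.123 for Gm9195, 0.00278 to 0.162 for 6330403K07Rik and 0.00163 to 0.141 for E230016K23Rik. As a description, HFD vs RD moved to 1.10 for Wdr72 and 1.06 for E230016K23Rik with replicates 5 to 7 alone.

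Of all genes, 963 were called in HFD vs RD islets, 1758 by DESeq2, 627 with the 2 groups alone, 1611 with the library set as a covariate, 563 with replicates 1 to 4, 307 with replicates 5 to 7 and 2148 at 0.05, with 589 (without RD replicate 7) to 1594 (without HFD replicate 7) when 1 sample was left out and 599 without HFD replicate 4. In HFD-O304 vs RD islets 356 were called, 727 by DESeq2, 543 with the library set, 85 and 228 in the 2 sets, 785 at 0.05, and 221 (without RD replicate 3) to 423 without 1 sample, with 235 and 225 without HFD-O304 replicates 1 and 5. In HFD-O304 vs HFD islets 3230 were called, 2001 and 1456 in the 2 sets, 5150 at 0.05, and 2643 to 3578 without 1 sample. The sets hold fewer samples, and the cause of the other shifts was not tested. A replicate block gave counts of 1577, 543 and 3763. The numbers pair no samples by the labels, the correlation of same-numbered deviations ran from -0.54 to 0.69, with 15 of 21 over 0.1, and 16 of 42 correlated best with their own number. The interaction with library set called 0 genes by edgeR but 8 (HFD vs RD) and 12 (HFD-O304 vs HFD) by DESeq2. Among HFD samples, whose levels also chose the genes, the median r of the member pairs was 0.53, a description with no test. It became 0.30 within library sets. Without 1 sample it ran from -0.013 (without replicate 7) to 0.83 (without replicate 1). Depth limits mainly Gm9195 in HFD-O304 islets, with 0 to 15 read pairs per sample.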
